A study of Homo sapiens with 6 samples.

Results

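SK-Mel-147, an established human melanoma cell line, was given miR-638 or antagomiR-638, and the transcripts that moved the same way under both were sought by setting the 4 treated arrays against 2 arrays of mock cells. The RNA of 3 groups was read on 6 Illumina HumanHT-12 v4 arrays: 2 arrays of cells transfected with a mimic of miR-638, 2 arrays of cells transfected with antagomiR-638, a hairpin inhibitor of that microRNA, and 2 arrays of mock-transfected cells, all taken 48 h after transfection. The sources differ on what the mock cells were given: the titles say mock-transfected, the series description names a non-targeting control, the study's legend names a control antagomiR, and the headers of the values read NT. Nothing says that the 2 arrays of a group came from separate cultures, so a p-value here reflects the scatter of these arrays alone, part or all of which may be technical.

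A gene counted as shared when all 4 treated arrays lay on 1 side of both mock arrays and the mean change of the 2 treatments was called (limma, adjusted p of 0.01 or less). Of 11501 genes with a probe detected on both arrays of at least 1 group, 405 were shared: 241 rose (2.10%) and 164 fell (1.43%). Both treatments were set against the same 2 mock arrays. A difference that lay in those 2 arrays and a response to both oligonucleotides cannot be told apart, and if the mock cells received no oligonucleotide, a response to any oligonucleotide and one to these sequences cannot be told apart either. In RNA from a whole culture, fewer cells in a given state and less RNA per cell cannot be told apart.

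A microRNA is a short RNA that lowers transcripts with sites for its seed. An antagomiR is a synthetic strand that binds a microRNA and keeps it from its targets. The 2 agents were made to act in opposite directions on the targets of miR-638. Short RNAs brought in by lipid transfection can also be read by sensors of foreign RNA, such as RIG-I (the product of RIGI) and MDA5 (the product of IFIH1), which switch on interferon and, through it, antiviral genes. Melanoma cells keep a working form of this pathway in many lines, and they also answer injury and growth signals with immediate-early genes such as EGR1.

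The sequence of the microRNA that both agents were built on is shown with its seed, bases 2 to 8, in capitals (RefSeq, GRCh38.p14, chr19:10718419-10718443, plus strand).
hsa-miR-638: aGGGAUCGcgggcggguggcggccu
For 5 of the antiviral genes that rose under both treatments, 30 bases of the RefSeq promoter window are shown with a match to the ISRE-like motif, the letters GAAANNGAAA read on either strand, in capitals. Such a motif resembles the element through which interferon acts on its genes.
IFI27 (chr14:94110631-94110660, plus strand): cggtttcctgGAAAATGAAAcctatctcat
MX1 (chr21:41431844-41431873, plus strand): ggtcactctgTTTCTCTTTCcgtgaataaa
IFI44L (chr1:78620365-78620394, plus strand): tcctagtgagGAAAAAGAAAgttagtggca
IFI6 (chr1:27672266-27672295, minus strand): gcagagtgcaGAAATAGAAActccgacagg
IFIT1 (chr10:89392510-89392539, plus strand): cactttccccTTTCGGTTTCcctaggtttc
In windows of 250 bases before to 50 bases after the start, the motif was present in 3.57% of 35116 RefSeq promoters and in 3.95% of the 9309 kept genes with a promoter in the table. It was present in 26 of the 204 shared rises with a promoter (12.7%): 14 of 18 from the interferon list (77.8%) and 12 of 186 others (6.45%). Among shared falls it was present in 6 of 128 (4.69%). The list holds genes on which interferon acts, so its high share is no result. Promoters of 2 further genes are shown because these genes had a large rise under 1 or both treatments. The EGR1 window holds a CArG box, the element bound by serum response factor, in capitals. This motif was present in 1.29% of all promoters, 1.67% of kept genes and 4 of the 204 shared rises (1.96%). The TXNIP window holds 2 half-sites in the spacing of a carbohydrate response element, searched as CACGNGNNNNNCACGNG. This was present in 0.057% of all promoters, 0.161% of kept genes and 2 of the 204 shared rises (0.98%).
EGR1 (chr5:138465386-138465415, plus strand): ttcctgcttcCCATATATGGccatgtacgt
TXNIP (chr1:145996645-145996674, minus strand): ggatgtgCACGAGGGCAGCACGAGcctccg
A match is a description of the letters in these windows and not of binding.

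Between 19794 and 20890 probes were detected per array. Across kept probes, which are not independent replicates, Pearson's r lay between 0.994 and 0.995 within a group and between 0.976 and 0.988 across groups. The median gene moved by 0.01 on the log2 scale in the mean of the 2 treatments. All changes and list medians given for genes are log2 changes against mock. An adjusted p given after them is that of the mean of the 2 treatments, unless the difference is named. It does not say that either treatment passed alone. Of the markers of the melanocyte lineage, 8 had a kept probe: SOX10, a transcription factor of that lineage, had a mean signal of 1191 over the 6 arrays and MITF, its master regulator, one of 41.4. The pigment genes PMEL, MLANA, TYR and TYRP1 and the marker S100B were detected on 0 arrays, and DCT had no named probe. None of the 8 kept melanocyte, 2 fibroblast, 3 keratinocyte, 7 leukocyte, 4 erythroid or 1 endothelial markers was a shared gene. Over all genes 2.10% were shared rises and 1.43% shared falls, so finding none among so few markers is no result about them.

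The comparison asked how much of the response was common to an agent and its antagonist. All 4 treated arrays lay above both mock arrays for 1610 genes (14.0%) and below both for 1445 genes (12.6%), with or without a call. The mean change of the 2 treatments was called for 485 genes (4.22%), of which 289 were higher (2.51%) and 196 lower (1.70%). Of these, 80 were not shared because the arrays overlapped, and for 39 of the 80 the 2 treatments moved in opposite directions. The changes of the shared genes were small for the most part: the lesser of the 2 changes had a median of 0.54 on the log2 scale among rises and -0.45 among falls. Both treatments passed 1.5-fold for 105 of the 241 rises and 29 of the 164 falls, and both passed 2-fold for 22 rises and 1 fall. For 9 rises the gene was not detected on either mock array. These 9 were kept only through treated arrays, where they are high, so their calls are no separate support. On none of the gene lists used here were 192 of the rises and 123 of the falls. At the edge of the call, TXNRD1 (log2 change 0.58, adjusted p = 0.00997) lay just inside and AKAP12 (0.59, 0.01001) just outside among rises, and HEBP1 (-0.53, 0.00999) and PHF13 (-0.53, 0.01015) among falls.

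Most shared genes did not pass under each treatment alone. Of the 241 rises, 73 were called under both miR-638 and antagomiR-638, 41 under miR-638 only, 120 under antagomiR-638 only and 7 under neither. Of the 164 falls, 15 were called under both, 29 under miR-638 only, 114 under antagomiR-638 only and 6 under neither. The direct comparison of miR-638 with antagomiR-638, which does not use the mock means but shares the fit's estimate of spread with them, called 1820 of all genes (15.8%) and 178 of the 405 shared genes. Among the rises the change was larger with antagomiR-638 for 69 genes, larger with miR-638 for 26 and not called different for 146. Among the falls the numbers were 72, 11 and 81. A difference that was not called does not show equal changes: the 95% interval of the difference had a median width of 0.55 on the log2 scale in both directions.

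The counts rested on all 6 arrays. The 241 rises became 107 without the first miR-638 array, 104 without the second, 63 without antagomiR-638 replicate 1, 74 without antagomiR-638 replicate 2, 53 without mock replicate 1 and 34 without mock replicate 2. The 164 falls became 50, 52, 18, 28, 8 and 1 in the same order. Of 71 shared genes named here by rule, 21 stayed called whichever array was left out, and 20 of these were rises. Of the 71, 49 lost their call without mock replicate 2, 40 without mock replicate 1 and between 15 and 33 without any 1 treated array. The calls also depended on how dim signals were treated: with limma on intensities floored at the detection limit, in place of the background model together with its offset, 0 genes were called for the mean change (3280 at an unadjusted p under 0.05), although all 405 kept their direction, with adjusted p from 0.0189 to 0.0519. No gene was called either with treated and mock arrays as 2 levels or without moderation of variances (1499 and 3035 at an unadjusted p under 0.05).

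**Figure D1:**
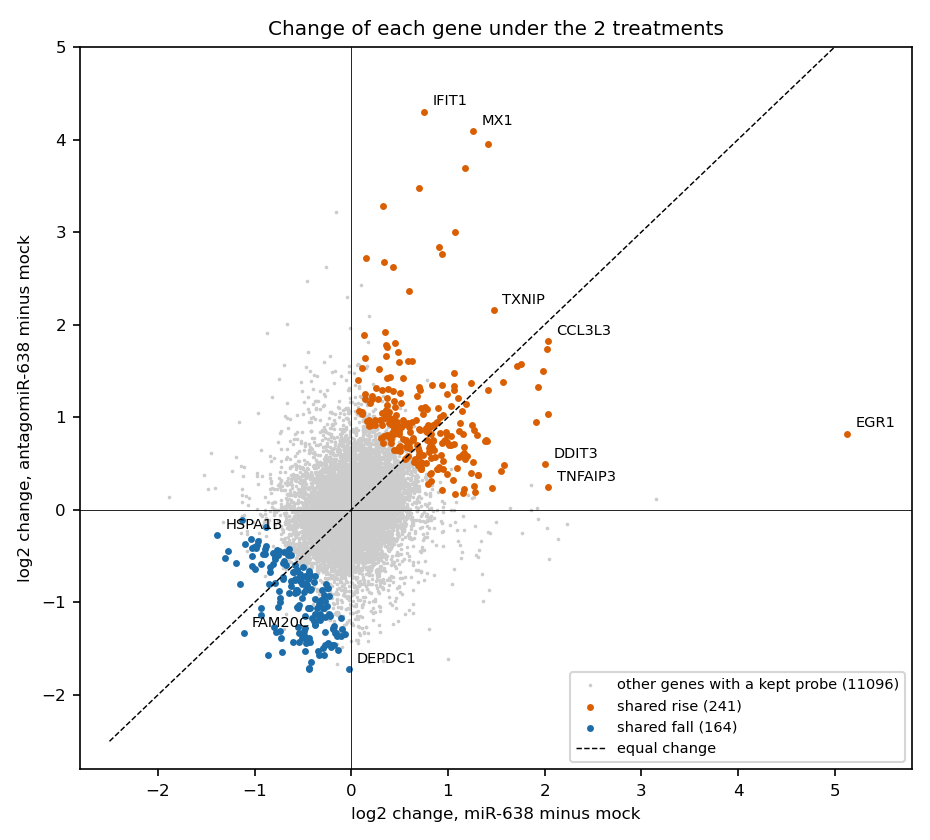
Log2 change of each gene with miR-638 minus mock (x axis) against antagomiR-638 minus mock (y axis), for 11501 genes. Points mark the 241 shared rises, the 164 shared falls and all other genes, and the dashed line marks equal change. The 2 axes share the mock arrays, so the general slope of the cloud is no result. Rises reach 5.13 along the x axis at EGR1 and 4.30 along the y axis at IFIT1, while CCL3L3 lies near the line of equal change.

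The largest lesser changes among rises were those of CCL3L3, ESM1 and CCL3, which encode secreted proteins. CCL3L3 and CCL3 encode near-identical inflammatory chemokines, which their probes may not separate. The signal of CCL3L3 was 277 and 323 on the miR-638 arrays and 236 and 282 on the antagomiR-638 arrays, against 76.2 and 69.8 on the mock arrays. All 4 treated arrays lay more than 3 times above the mock arrays, and the arrays of the 2 treatments overlapped. Its log2 change was 2.04 ± 0.14 with miR-638 and 1.83 ± 0.14 with antagomiR-638 (SE, n = 2 arrays per group; adjusted p = 8.91e-05 for the mean change), and the difference of 0.21 had a 95% interval of -0.10 to 0.52. CCL3 had signals of 87.7 and 105 on the miR-638 arrays and 84.1 and 85.4 on the antagomiR-638 arrays, against 33.1 and 24.4 on the mock arrays, with changes of 1.76 with miR-638 and 1.58 with antagomiR-638 (adjusted p = 4.05e-04). ESM1, which encodes a secreted proteoglycan, had 212 and 172 on the miR-638 arrays and 179.8 and 136 on the antagomiR-638 arrays, against 44.6 and 49.2 on the mock arrays, and changed by 2.02 ± 0.16 with miR-638 and 1.74 ± 0.16 with antagomiR-638 (adjusted p = 2.63e-04), and its other kept probe also passed, with 1.50 with miR-638 and 1.53 with antagomiR-638. EGF, a growth factor, had 166 and 228 on the miR-638 arrays and 129 and 127 on the antagomiR-638 arrays, against 59.5 and 43.8 on the mock arrays. Its miR-638 arrays lay above its antagomiR-638 arrays (changes of 1.93 with miR-638 and 1.33 with antagomiR-638, interval of the difference 0.19 to 1.01), a difference that was not called (adjusted p = 0.0404).

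Further rises with a large lesser change came from genes of unlike function. ANKRD1, a nuclear cofactor and a target of YAP, had signals of 588 and 498 on the miR-638 arrays and 354 and 428 on the antagomiR-638 arrays, against 138 and 136 on the mock arrays. It changed by 1.98 ± 0.14 with miR-638 and 1.50 ± 0.14 with antagomiR-638 (adjusted p = 1.46e-04), with an interval of the difference that lay above 0 (0.16 to 0.79) and no call (adjusted p = 0.0334). MRPS35, a protein of the small mitochondrial ribosomal subunit, had 703 and 785 on the miR-638 arrays and 626 and 707 on the antagomiR-638 arrays, against 215 and 238 on the mock arrays, and changed by 1.72 with miR-638 and 1.56 with antagomiR-638 (adjusted p = 1.34e-04). The treated arrays of both genes lay more than 2 times above the mock arrays, and for MRPS35 the 2 treatments overlapped. RRAS2, a Ras-related GTPase, had 744 and 872 on the miR-638 arrays and 702 and 717 on the antagomiR-638 arrays, against 309 and 239.6 on the mock arrays, and changed by 1.57 with miR-638 and 1.38 with antagomiR-638 (adjusted p = 4.99e-04); its other kept probe gave 1.27 with miR-638 and 1.19 with antagomiR-638. AMMECR1 changed by 1.41 with miR-638 and 1.30 with antagomiR-638 (adjusted p = 2.70e-04) at its brightest probe and by 1.60 with miR-638 and 1.19 with antagomiR-638 at another, while 1 more kept probe gave 0.06 with miR-638 and 0.45 with antagomiR-638 and was not called (adjusted p = 0.235). AP1AR, which encodes a regulator of the adaptor complex AP-1, changed by 1.23 with miR-638 and 1.37 with antagomiR-638 (adjusted p = 7.05e-04), and by 0.95 with miR-638 and 0.78 with antagomiR-638 at its other probe. The call of EGF and that of AP1AR were lost without mock replicate 2.

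TXNIP, which encodes an inhibitor of thioredoxin that also limits glucose uptake, rose strongly under both treatments and more with antagomiR-638. Its signals were 639 and 604 on the miR-638 arrays and 961 and 1037 on the antagomiR-638 arrays, against 207 and 240.2 on the mock arrays. The 3 groups did not overlap, and both treatments lay well above mock. The log2 change was 1.48 ± 0.12 with miR-638 and 2.16 ± 0.12 with antagomiR-638 (adjusted p = 8.91e-05), and the difference of -0.68 was called (adjusted p = 0.00394). TXNIP and BNIP3L, a mitochondrial receptor for autophagy (0.47 with miR-638 and 1.03 with antagomiR-638), were the only 2 shared rises among 34 genes of hypoxia and glycolysis, whose median change was -0.05. The call of BNIP3L was lost without either mock array, among others. NDUFB5, a subunit of respiratory complex I, changed by 1.06 with miR-638 and 1.34 with antagomiR-638 (adjusted p = 4.05e-04), and was the only shared gene among 58 of oxidative phosphorylation (median 0.01). Beside shares of 2.10% (rises) and 1.43% (falls) over all genes, counts this small do not set either list apart.

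**Figure D2:**
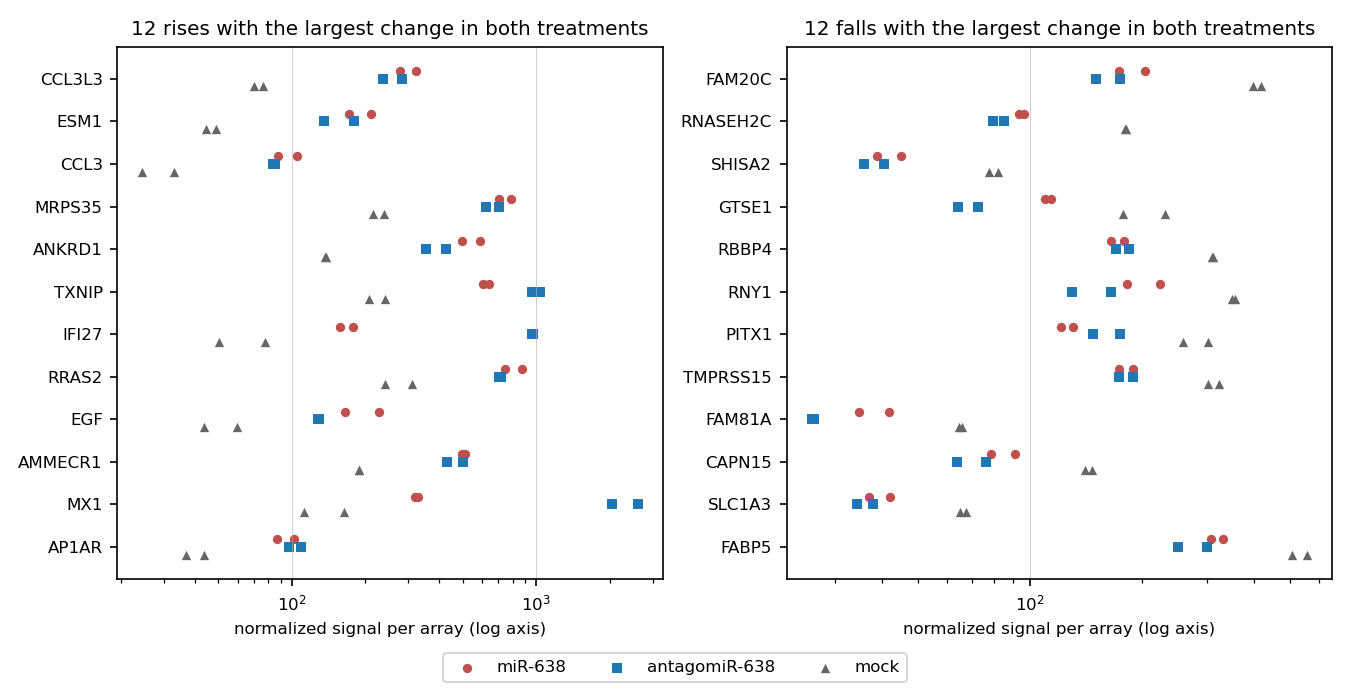
Normalized signal on each array (x axis, log scale) for the 12 rises and the 12 falls with the largest lesser change, 1 row per gene. Circles are miR-638, squares antagomiR-638 and triangles mock arrays, 2 of each. In every row the 4 treated arrays lie on 1 side of both mock arrays, and for MX1 and IFI27 the antagomiR-638 arrays lie far above the miR-638 arrays.

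Of the lists used here, which were chosen with earlier results of these data known, interferon-stimulated genes held the most shared rises. On no list were 192 of the 241 rises. Of the 51 kept genes of the list, 20 were shared rises and 0 were shared falls (39.2%, against 2.10% and 1.43% of all genes), and 7 more were called without being separated on all arrays. The median change of the 51 genes was 0.16 with miR-638 and 1.20 with antagomiR-638, against 0.00 and 0.01 for all genes. In 19 of the 20 shared genes the rise was larger with antagomiR-638, and 5 of the 20 were called under miR-638 alone as well. The 20 became 16 without the first miR-638 array, 13 without the second, 12 without antagomiR-638 replicate 1, 14 without antagomiR-638 replicate 2, and 11 without either mock array.

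IFI27, which encodes a small mitochondrial protein that is a marker of interferon action, had signals of 177 and 157 on the miR-638 arrays and 969 and 959 on the antagomiR-638 arrays, against 50.2 and 77.6 on the mock arrays. The 3 groups did not overlap, and the 2 mock arrays differed more than the arrays of either treatment. It changed by 1.42 ± 0.19 with miR-638 and 3.95 ± 0.19 with antagomiR-638 (adjusted p = 8.91e-05). MX1, an antiviral GTPase, had 328 and 320.4 on the miR-638 arrays and 2599 and 2030.3 on the antagomiR-638 arrays, against 112 and 163 on the mock arrays, and changed by 1.26 ± 0.19 with miR-638 and 4.09 ± 0.19 with antagomiR-638 (adjusted p = 8.91e-05). IFI6, whose product protects cells from death, had 949 and 844 on the miR-638 arrays and 3675 and 3184 on the antagomiR-638 arrays, against 382 and 475 on the mock arrays, and changed by 1.07 with miR-638 and 3.01 with antagomiR-638 (adjusted p = 8.91e-05); at its other kept probe the changes were 0.66 with miR-638 and 2.90 with antagomiR-638 and the arrays overlapped. IFI44L had 56.9 and 61.5 on the miR-638 arrays and 397 and 290.1 on the antagomiR-638 arrays, against 28.1 and 24.3 on the mock arrays. Its changes were 1.18 with miR-638 and 3.70 with antagomiR-638 (adjusted p = 8.91e-05), but its other kept probe gave 0.10 with miR-638 and 1.14 with antagomiR-638 and was not called (adjusted p = 0.0329).

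IFIT1, which binds viral RNA, had 132 and 103 on the miR-638 arrays and 1406 and 1309 on the antagomiR-638 arrays, against 60.6 and 78.1 on the mock arrays. It changed by 0.76 ± 0.16 with miR-638 and 4.30 ± 0.16 with antagomiR-638, a difference of -3.55 (adjusted p = 7.98e-06), and its other probe was not called for the mean change (0.48, adjusted p = 0.0186). OAS2, an enzyme activated by double-stranded RNA, was not detected on the mock arrays and was kept only through its treated arrays. It had 30.5 and 35.9 on the miR-638 arrays and 278 and 182 on the antagomiR-638 arrays. The mean of the 4 was at least 3.62-fold above mock, set at the detection limit. At its other kept probe OAS2 changed by 0.05 with miR-638 and 1.28 with antagomiR-638, and its arrays overlapped with mock. The smallest changes with miR-638 among the shared genes of the list were those of DDX60 (0.14) and IFITM3 (0.14), beside 1.25 and 1.20 with antagomiR-638.

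The sensors of foreign RNA and their adaptors gave 6 shared rises of 24 kept genes and 0 falls (25%, against 2.10% and 1.43% of all genes). The list median was 0.05 with miR-638 and 0.27 with antagomiR-638. Of the 6, 1 was called under both treatments alone and 5 under antagomiR-638 only. All 6 are also on the interferon list, and all 6 rose more with antagomiR-638. IRF7, a transcription factor that amplifies interferon genes, had 121 and 119.7 on the miR-638 arrays and 424 and 429 on the antagomiR-638 arrays, against 59.6 and 66.4 on the mock arrays. The 3 groups were separate, and IRF7 changed by 0.94 ± 0.12 with miR-638 and 2.76 ± 0.12 with antagomiR-638 (adjusted p = 8.91e-05). IFIH1 had 102 and 109 on the miR-638 arrays and 385 and 334 on the antagomiR-638 arrays, against 65.1 and 75.1 on the mock arrays, with changes of 0.59 with miR-638 and 2.36 with antagomiR-638 (adjusted p = 2.70e-04). RIGI changed by 0.63 with miR-638 and 1.61 with antagomiR-638 (adjusted p = 8.41e-04), a call that was lost without mock replicate 2. The 6 became 4 with any of the other 5 arrays left out and 3 without mock replicate 2. Among 19 genes of MHC class I presentation, HLA-B was the 1 shared rise (0.40 with miR-638 and 1.00 with antagomiR-638, adjusted p = 0.00378), with a call lost when any array was left out.

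Immediate-early, stress and inflammatory genes made a second group, in which EGR1, TNFAIP3, DDIT3, ATF3, SESN2, CCN1 and DUSP1 rose more with miR-638 by the test. None of these was called with antagomiR-638 alone, EGR1 among them (adjusted p = 0.0241). EGR1, a transcription factor switched on by growth signals, had signals of 1546 and 919.8 on the miR-638 arrays and 56.2 and 64.4 on the antagomiR-638 arrays, against 34.9 and 33.1 on the mock arrays. Its miR-638 arrays were more than 10 times above all others, and its antagomiR-638 arrays lay above mock by 0.82 ± 0.21 on the log2 scale, against 5.13 ± 0.21 for miR-638 (adjusted p = 8.91e-05 for the mean change and 9.56e-06 for the difference). Of 30 kept immediate-early genes, 6 were shared rises and 0 were falls (20%, against 2.10% and 1.43% of all genes). The list median was 0.33 with miR-638 and 0.05 with antagomiR-638. Of the 6, 1 was called under both treatments alone and 5 under miR-638 only. DUSP5, a phosphatase that restrains ERK (1.17 with miR-638 and 0.61 with antagomiR-638, adjusted p = 0.00209), and CCN2, a matrix signalling protein (1.00 with miR-638 and 0.80 with antagomiR-638, adjusted p = 0.00278), had no called difference between the treatments. The 6 became 4 without miR-638 replicate 1, 3 without either antagomiR-638 array, 1 without mock replicate 1 and 2 without mock replicate 2.

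Of 39 genes of the ATF4 response to amino-acid and folding stress, 5 were shared rises and 0 were falls (12.8%, against 2.10% and 1.43% of all genes). The medians were 0.48 with miR-638 and -0.22 with antagomiR-638. Of the 5, 1 was called under both treatments alone and 4 under miR-638 only. ATF3 is also on the immediate-early list. DDIT3, a transcription factor of prolonged stress, had 444 and 442 on the miR-638 arrays and 143 and 169 on the antagomiR-638 arrays, against 106 and 115 on the mock arrays. It changed by 2.01 ± 0.13 with miR-638 and 0.49 ± 0.13 with antagomiR-638 (adjusted p = 5.03e-04 for the mean change), a difference that was called (adjusted p = 8.50e-05). The change of DDIT3 with antagomiR-638 alone was not called (adjusted p = 0.0242). ATF3 changed by 1.58 with miR-638 and 0.49 with antagomiR-638 (adjusted p = 9.56e-04), SESN2 by 1.55 with miR-638 and 0.42 with antagomiR-638 (adjusted p = 0.00378) and PPP1R15A, which restores translation after stress, by 0.84 with miR-638 and 0.67 with antagomiR-638 (adjusted p = 0.00224). PPP1R15A was the one of these 4 whose changes did not differ by the test (interval -0.08 to 0.42). The 5 became 3 without either miR-638 array and 2 without any 1 of the other 4.

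Of 28 NF-κB targets and inflammatory chemokines, 4 were shared rises and 0 were falls (14.3%, against 2.10% and 1.43% of all genes). The medians were 0.55 with miR-638 and -0.06 with antagomiR-638. Of the 4, 2 were called under both treatments alone, 1 under miR-638 only and 1 under antagomiR-638 only. Besides the CCL3 genes the shared rises were TNFAIP3, a brake on NF-κB signalling, and IL24, a cytokine. TNFAIP3 had 389 and 466 on the miR-638 arrays and 116 and 129 on the antagomiR-638 arrays, against 101 and 106 on the mock arrays, so that its antagomiR-638 arrays lay only just above mock (0.24 ± 0.13) beside 2.04 ± 0.13 with miR-638 (adjusted p = 8.41e-04). IL24 went the other way in size, with 0.46 with miR-638 and 1.11 with antagomiR-638 (adjusted p = 0.00445), a call lost with any array left out. The 4 became 2 without either mock array.

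Of 39 p53 targets, 7 were shared rises and 0 were falls (17.9%, against 2.10% and 1.43% of all genes). The medians were -0.03 with miR-638 and 0.48 with antagomiR-638. Of the 7, 2 were called under both treatments alone, 1 under miR-638 only and 4 under antagomiR-638 only. PMAIP1, an activator of cell death, had 880.1 and 927 on the miR-638 arrays and 608 and 559 on the antagomiR-638 arrays, against 369 and 322 on the mock arrays, and changed by 1.39 ± 0.12 with miR-638 and 0.76 ± 0.12 with antagomiR-638 (adjusted p = 8.41e-04). GADD45A, a stress protein that slows the cell cycle, changed by 1.17 with miR-638 and 0.68 with antagomiR-638 (adjusted p = 0.00116), and by 1.73 with miR-638 and 0.70 with antagomiR-638 at its other probe. KITLG, a growth factor for melanocytes, changed by 0.36 with miR-638 and 1.66 with antagomiR-638 (adjusted p = 9.56e-04), SESN2 was also on this list, and DRAM1, a lysosomal regulator of autophagy, changed by 0.11 with miR-638 and 1.06 with antagomiR-638 (adjusted p = 0.00692), a call lost with any array left out. Of the 7, 4 rose more with antagomiR-638 and 2 more with miR-638. The 7 became 3 without antagomiR-638 replicate 1, 4 without antagomiR-638 replicate 2, 3 without mock replicate 1 and 1 without mock replicate 2.

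Targets of TGF-β and YAP gave 4 shared rises and 1 shared fall among 24 genes, against 2.10% and 1.43% of all genes. The medians were 0.01 with miR-638 and 0.11 with antagomiR-638. Of these shared genes, 2 were called under both treatments alone, 2 under miR-638 only and 1 under antagomiR-638 only. CCN1 and CCN2 are also on the immediate-early list. Beside ANKRD1 and CCN2, CCN1 changed by 1.45 with miR-638 and 0.23 with antagomiR-638 (adjusted p = 0.00231), and ACTA2, a smooth-muscle actin, by 0.14 with miR-638 and 1.64 with antagomiR-638 (adjusted p = 0.00225). ID1, an inhibitor of differentiation factors, fell, with 469 and 529 on the miR-638 arrays and 806 and 725 on the antagomiR-638 arrays, against 1079.9 and 1201 on the mock arrays, and changes of -1.19 with miR-638 and -0.57 with antagomiR-638 (adjusted p = 0.00202). The 4 rises became 2 without miR-638 replicate 2 or mock replicate 1 and 1 without mock replicate 2, and the fall was not called without either antagomiR-638 array or either mock array.

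**Figure D3:**
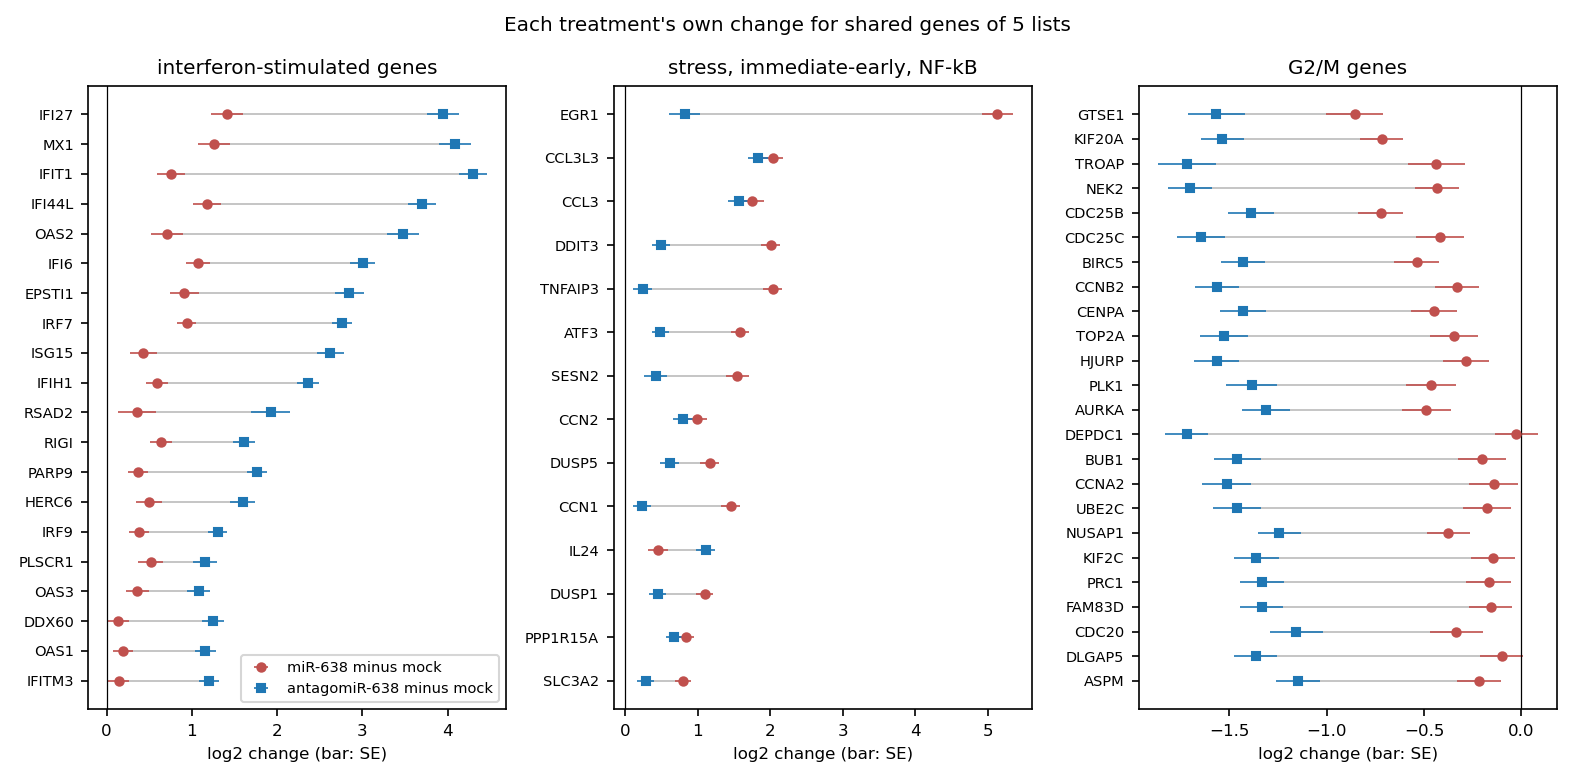
Log2 change against mock with miR-638 (circles) and with antagomiR-638 (squares) for the shared genes of the interferon list (20 rises), of the immediate-early, ATF4 and NF-κB lists together (14 rises) and of the G2/M list (24 falls). Bars are standard errors and the vertical line is no change. The antagomiR-638 change is the larger one for the interferon and G2/M genes, and the miR-638 change for most of the middle panel, up to 5.13 at EGR1.

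The falls of like size were led by FAM20C, a Golgi kinase that phosphorylates secreted proteins. It had 174 and 204 on the miR-638 arrays and 150.3 and 175 on the antagomiR-638 arrays, against 398 and 417 on the mock arrays. FAM20C was the 1 shared fall past 2-fold under both treatments, with -1.11 ± 0.13 with miR-638 and -1.33 ± 0.13 with antagomiR-638 (adjusted p = 7.15e-04), a call that needed mock replicate 2. Its other kept probe gave -0.32 with miR-638 and -0.16 with antagomiR-638 and was not called (adjusted p = 0.207). RNASEH2C, a subunit of ribonuclease H2, had 96.5 and 93.4 on the miR-638 arrays and 79.9 and 85.1 on the antagomiR-638 arrays, against 182 and 180.2 on the mock arrays, with changes of -0.93 with miR-638 and -1.13 with antagomiR-638 (adjusted p = 7.15e-04), also lost without mock replicate 2. The 2 treatments overlapped or lay close to each other in both genes, below a narrow pair of mock arrays.

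SHISA2, a membrane protein of the endoplasmic reticulum, had 38.9 and 45.2 on the miR-638 arrays and 40.6 and 36.0 on the antagomiR-638 arrays, against 82.1 and 77.8 on the mock arrays, with changes of -0.93 with miR-638 and -1.06 with antagomiR-638 (adjusted p = 0.00135). PITX1, a homeobox transcription factor, had 121 and 131 on the miR-638 arrays and 175 and 148 on the antagomiR-638 arrays, against 259 and 302 on the mock arrays, with changes of -1.15 with miR-638 and -0.80 with antagomiR-638 (adjusted p = 0.00178). SLC1A3, a glutamate transporter, changed by -0.75 with miR-638 and -0.87 with antagomiR-638 (adjusted p = 0.00256), and RNY1, a Y RNA, by -0.80 with miR-638 and -1.27 with antagomiR-638 (adjusted p = 0.00224). FAM81A (-0.78 with miR-638 and -1.32 with antagomiR-638) and CAPN15, of the calpain protease family (-0.76 with miR-638 and -1.04 with antagomiR-638), fell as well. All 6 calls were lost without mock replicate 1 and without mock replicate 2.

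As with FAM20C, the other probes of 3 further falls of this group did not move alike. RBBP4, a histone-binding protein, changed by -0.85 with miR-638 and -0.80 with antagomiR-638 (adjusted p = 0.00184) at its brightest kept probe, but 2 other kept probes had mean changes of 0.22 and -0.04. TMPRSS15, an intestinal protease, changed by -0.79 with miR-638 and -0.79 with antagomiR-638 (interval of the difference -0.27 to 0.27), against -0.15 with miR-638 and -0.36 with antagomiR-638 at its other probe. FABP5, a fatty-acid carrier, changed by -0.74 with miR-638 and -0.96 with antagomiR-638, against -0.22 with miR-638 and -0.39 with antagomiR-638 at its other probe. All 3 calls were lost without either mock array. Over all shared falls, 40 of 44 other kept probes moved the same way and 12 of the 44 were shared themselves. Over all shared rises, 92 of 96 other kept probes moved the same way and 33 were shared.

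Of the same lists, chosen with earlier results of these data known, those of cell division held the most shared falls. On no list were 123 of the 164 falls. Of 50 kept G2/M genes, 24 were shared falls and 0 were shared rises (48%, against 1.43% and 2.10% of all genes), and 8 more were called without being separated. The median change of the 50 genes was -0.10 with miR-638 and -1.33 with antagomiR-638. All 24 fell more with antagomiR-638, and 3 of the 24 were called under miR-638 alone as well. The 24 became 17 without the first miR-638 array, 18 without the second, 8 without antagomiR-638 replicate 1, 13 without antagomiR-638 replicate 2, 5 without mock replicate 1 and 1 without mock replicate 2.

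GTSE1, a microtubule protein of G2, had 110.1 and 114 on the miR-638 arrays and 64.4 and 72.8 on the antagomiR-638 arrays, against 178 and 231 on the mock arrays. The 3 groups did not overlap, and GTSE1 changed by -0.86 ± 0.15 with miR-638 and -1.57 ± 0.15 with antagomiR-638 (adjusted p = 0.00101). KIF20A, a kinesin of cell cleavage, had 616 and 615 on the miR-638 arrays and 361 and 338 on the antagomiR-638 arrays, against 1005 and 1021 on the mock arrays, with changes of -0.72 with miR-638 and -1.54 with antagomiR-638 (adjusted p = 4.68e-04), and was the 1 named fall that stayed called whichever array was left out. CDC25B, a phosphatase that starts mitosis, changed by -0.72 with miR-638 and -1.39 with antagomiR-638 (adjusted p = 7.47e-04) and BIRC5, which encodes survivin, by -0.54 with miR-638 and -1.43 with antagomiR-638 (adjusted p = 8.48e-04). These 4 had the largest falls with miR-638 on the list, and each fell more with antagomiR-638. At the other end, DEPDC1 had 741 and 737 on the miR-638 arrays and 222 and 235 on the antagomiR-638 arrays, against 749 and 756 on the mock arrays, so that miR-638 and mock were barely separated (-0.03 ± 0.11) beside -1.72 ± 0.11 with antagomiR-638. CCNA2, a cyclin, had changes of -0.14 with miR-638 and -1.51 with antagomiR-638, UBE2C, a ubiquitin carrier of mitosis, -0.18 with miR-638 and -1.46 with antagomiR-638, HJURP, a centromere chaperone, -0.29 with miR-638 and -1.57 with antagomiR-638, and TROAP, a spindle protein, -0.44 with miR-638 and -1.72 with antagomiR-638. The other kept probes of UBE2C (-0.03 with miR-638 and -0.80 with antagomiR-638, adjusted p = 0.0683) and BIRC5 (-0.10 with miR-638 and -0.99 with antagomiR-638, adjusted p = 0.0199) were not called for the mean change, and UBE2C was no longer shared when the probes of a gene were averaged.

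Of 45 G1/S genes, 10 were shared falls and 0 were shared rises (22.2%, against 1.43% and 2.10% of all genes). The medians were 0.03 with miR-638 and -0.77 with antagomiR-638. MCM5, part of the replication helicase, had 163 and 151 on the miR-638 arrays and 94.7 and 116 on the antagomiR-638 arrays, against 254 and 267 on the mock arrays. It changed by -0.73 ± 0.13 with miR-638 and -1.31 ± 0.13 with antagomiR-638 (adjusted p = 0.00142) and was the 1 of the 10 without a called difference. CDT1, which licenses replication origins, changed by -0.48 with miR-638 and -1.14 with antagomiR-638, GINS3, of the same machinery, by -0.37 with miR-638 and -1.12 with antagomiR-638, and FEN1, a nuclease of the replication fork, by -0.33 with miR-638 and -1.02 with antagomiR-638. The other kept probe of FEN1 was not called (-0.11 with miR-638 and -0.98 with antagomiR-638, adjusted p = 0.0125). None of the 10 was called under miR-638 alone. The 10 became 3 without the first miR-638 array, 2 without the second, 1 without either antagomiR-638 array and 0 without either mock array. Among 20 kept histone genes the 1 shared fall was H2AX (-0.54 with miR-638 and -1.03 with antagomiR-638, adjusted p = 0.00302). H2AX was not called under miR-638 alone, and its call was lost without either mock array, among others.

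**Figure D4:**
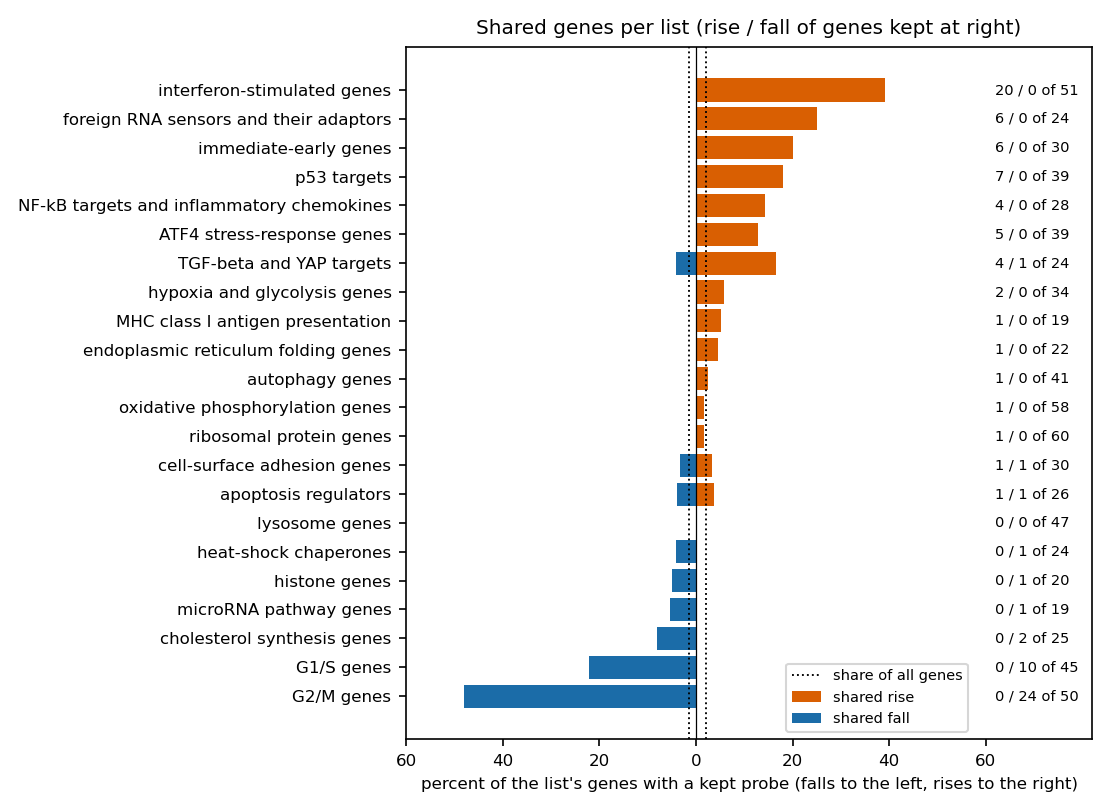
Share of each list's kept genes that were shared rises (right) or shared falls (left), in percent, with the numbers at the right. Dotted lines mark the shares over all genes, 2.10% for rises and 1.43% for falls. The interferon list reaches 39.2% among rises and the G2/M list 48% among falls.

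The other lists held few shared genes, beside shares of 2.10% (rises) and 1.43% (falls) over all genes. Counts this small do not set a list apart from all genes. HSPA1B, a heat-shock chaperone whose probe may read the near copy HSPA1A, was the 1 shared fall of 24 chaperone genes, with -1.39 with miR-638 and -0.28 with antagomiR-638 (adjusted p = 0.00290). HAS3, a hyaluronan synthase, fell (-1.30 with miR-638 and -0.52 with antagomiR-638, adjusted p = 0.00146) and EFNB2, an ephrin, rose (0.83 with miR-638 and 0.32 with antagomiR-638, adjusted p = 0.00696) among 30 cell-surface adhesion genes. All 3 changed more with miR-638. DHCR7 (-0.43 with miR-638 and -0.86 with antagomiR-638) and EBP (-0.44 with miR-638 and -0.68 with antagomiR-638) were the 2 shared falls of 25 genes of cholesterol synthesis, whose median change was -0.16. CANX, a chaperone of the endoplasmic reticulum, rose (1.03 with miR-638 and 0.80 with antagomiR-638, adjusted p = 0.00117) as the 1 shared gene of 22 folding genes, and RPS23 (0.72 with miR-638 and 0.52 with antagomiR-638) as the 1 of 60 ribosomal protein genes. GEMIN4, the 1 of 19 genes of the microRNA pathway, fell (-0.45 with miR-638 and -0.75 with antagomiR-638, adjusted p = 0.00888). Of 26 apoptosis regulators PMAIP1 rose and BIRC5 fell, and of 41 autophagy genes the 1 shared rise was DRAM1. No lysosome gene of 47 was shared, while 2 of them were called in the mean change. The calls of EFNB2, DHCR7, EBP, RPS23 and GEMIN4 were lost with any array left out, and those of HSPA1B, HAS3 and CANX without either mock array, among others.

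CYP4F2, a fatty-acid hydroxylase whose probe may read related copies, rose with 23.4 and 31.2 on the miR-638 arrays and 227 and 192 on the antagomiR-638 arrays, against a signal not above background on the mock arrays. The mean of the 4 treated arrays was at least 3.16-fold above mock at the detection limit. CYP4F2 was kept only through the antagomiR-638 arrays, where it is high, so its call is no separate support. It was detected on 1 of the 2 miR-638 arrays, and the lower miR-638 array lay close to the mock arrays, so the size of its change with miR-638 is not given.

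The 6 genes that the study followed up and that had a kept probe were not in the shared response. The study chose TP53INP2 from these arrays, among genes lowered by miR-638 and raised by antagomiR-638, so its absence was fixed in advance. Over all genes 2.10% were shared rises and 1.43% shared falls, so the absence of the other genes is no result about them. TP53INP2, a regulator of autophagy, had 58.1 and 56.8 on the miR-638 arrays and 255 and 242 on the antagomiR-638 arrays, against 129.8 and 128 on the mock arrays, and its 2 treatments lay on opposite sides of mock, with -1.16 ± 0.11 with miR-638 and 0.95 ± 0.11 with antagomiR-638. TFAP2A, the transcription factor AP-2α, had 315 and 266 on the miR-638 arrays and 708 and 709 on the antagomiR-638 arrays, against 525 and 572 on the mock arrays, with -0.92 with miR-638 and 0.37 with antagomiR-638. CDKN1A, the cell cycle inhibitor p21, changed by -0.29 with miR-638 and 1.13 with antagomiR-638, and MDM2, which degrades p53, by 0.03 with miR-638 and 0.77 with antagomiR-638. None of the 6 was called in the mean change, BAX, an activator of cell death, and DNM2, a dynamin, among them (adjusted p = 0.584 and 0.581). In all 6 genes the 4 treated arrays did not lie on 1 side of both mock arrays.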

How the data were processed

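Illumina HumanHT-12 v4 arrays were hybridised with RNA of 6 samples. Per the labels, the authors processed the data with lumi, with no version given. The deposited intensity values are linear, background-subtracted (26.2% below 0) and already quantile-normalized (sorted columns differ by at most 0.349), although named non-normalized, which removes any overall shift between arrays. Detection p-values were used as deposited.

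The normexp model of limma 3.58.1 (R 4.3.3), with detection p-values and an offset of 16, was followed by quantile normalization and log2. Signals are these values on the linear scale, and the offset shrinks the fold changes of dim probes. Probes were kept if both arrays of any group had a detection p under 0.05 (20145 of 47319). The probe of highest mean log2 value stood for its gene, with symbols updated through Entrez identifiers (30073 of 30112 probes with 1 symbol). A model of 3 group means was fitted to 6 arrays (3 residual and 6.31 prior degrees of freedom). p-values are two-sided, adjusted over all kept probes by Benjamini-Hochberg and called at 0.01 or less. Where mock was not detected, folds are bounds against the lowest detected signal of each array. RefSeq sequences come from GRCh38.p14.

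Members and lists were chosen with earlier results of these data known. Genes named by rule are the 12 shared genes per direction with the largest lesser change, up to 4 per list, the 5 per direction with the largest called difference between treatments, and genes the study followed up. DDX60, IFITM3 and ACTA2, and the genes at the edge of the call, were chosen after their values were seen. Alternatives changed background, scaling, filter, threshold, test, weights, probe choice and arrays. Counts per list without each array were added after the data were seen. The model was tested on simulated data.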

Additional observations from a re-analysis of the deposited data

Results flagged for a closer look

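Of the shared genes, 178 differed in the size of their change between the treatments (limma, miR-638 minus antagomiR-638). Each difference below is miR-638 minus antagomiR-638 on the log2 scale and passed the threshold of 0.01 on the adjusted p. Among rises that were larger with antagomiR-638 it was -3.55 for IFIT1, -2.83 for MX1, -2.77 for OAS2, -2.53 for IFI27, -2.52 for IFI44L and -1.93 for IFI6. It was -1.82 for IRF7, -1.77 for IFIH1, -1.30 for KITLG, -0.98 for RIGI, -0.95 for DRAM1, -0.68 for TXNIP, -0.65 for IL24 and -0.60 for HLA-B. CYP4F2, detected on 1 of 2 miR-638 arrays, had a fitted difference of -2.95, whose size rests on the background and offset. Among rises that were larger with miR-638 it was 4.31 for EGR1, 1.80 for TNFAIP3, 1.51 for DDIT3, 1.22 for CCN1, 1.13 for SESN2, 1.09 for ATF3, 0.63 for PMAIP1 and 0.51 for EFNB2.

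Among falls that were larger with antagomiR-638 the difference was 1.69 for DEPDC1, 1.37 for CCNA2, 1.28 for UBE2C, 1.28 for TROAP, 1.28 for HJURP, 0.89 for BIRC5 and 0.82 for KIF20A. It was 0.75 for GINS3, 0.71 for GTSE1, 0.69 for FEN1, 0.66 for CDC25B and 0.66 for CDT1. Among falls that were larger with miR-638 it was -1.11 for HSPA1B, -0.78 for HAS3 and -0.62 for ID1.

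Probes with no single gene symbol were left out of the counts of genes. Of these 4829 kept probes, 46 rose and 50 fell under the rule for shared genes. Over all 20145 kept probes, 336 rose and 245 fell, so neither share was higher among those without a symbol.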

How the results depend on the processing

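Values are given in the order of genes called for the mean change (485), shared rises (241), shared falls (164) and shared genes that differ between treatments (178). With an offset of 50 they were 957, 430, 322 and 315, with no filter on dim probes 151, 89, 50 and 77, and at an adjusted p under 0.05 they were 1564, 690, 525 and 481. With each treatment called on its own in the same direction they were 88, 73, 15 and 16. All 4 counts were 0 with limma on intensities floored at the detection limit, on the series matrix values and with treated and mock as 2 levels. They were also 0 with a t-test of the mean change without moderation of variances, which is not the study's own ANOVA. At an unadjusted p under 0.05 those 4 settings gave 3280, 3280, 1499 and 3035 genes for the mean change, against 3600. On the floored intensities all 405 shared genes kept their sign, with adjusted p from 0.0189 to 0.0519, and the prior degrees of freedom were 2.39 against 6.31. With treated and mock as 2 levels the adjusted p of the 405 genes ran from 0.0224 to 0.530, since the difference between the treatments then counts as spread.

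With 1 array left out the counts ran from 39 to 173, from 34 to 107, from 1 to 52 and from 22 to 66. A lone array of a group was then assumed to vary like the other groups. With a replicate block they were 244, 136, 76 and 107. The deviations of same-numbered arrays from their group means correlated at -0.0595, -0.0686 and -0.0539. The labels do not say whether same-numbered arrays were made together. These values cannot decide it, since a batch that touched few genes would leave no such correlation. Median scaling, probes detected on all 6 arrays, array weights and averaged probes kept all 4 counts within 1.5 times. The median scaling run shared 241 rises and 163 falls with the reported sets. Among the 77 named genes the direction turned only for BAX, which was not called, whose mean change ranged from -0.79 to 0.28 with 1 array left out and was 0.28 without mock replicate 2.

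Dim probes, the 2 arrays per group and the 2 mock arrays common to both treatments limit every value.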
